A study of Mus musculus with 12 samples.

Results

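The genes described here are 54 genes of G2 and mitosis. They cover the mitotic cyclins and CDK1, the mitotic kinases, the spindle checkpoint, anaphase-promoting complex activity with separase, and the mitotic kinesins. They also cover the kinetochore, the chromosomal passenger complex, condensin, the spindle and cytokinesis machinery, and the transcription factor Foxm1. Each gene was represented by the brightest Affymetrix probe set annotated to that gene alone. Such a probe set existed for 53 of the 54, among 18194 genes in the whole series. Ccnb1, which encodes cyclin B1, has no value because its probe sets are annotated to several genes. All 53 passed the filter on dim genes, which kept 12673 genes.

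RNA came from I/11 cells, an immature erythroid progenitor line derived from fetal liver of p53-deficient mice. The cells were kept expanding in serum-free medium with erythropoietin, stem cell factor and dexamethasone. The 3 lines were stably infected with lentiviral pLKO vectors, carrying hairpin sh14 against Plcg1, hairpin sh133 against Plcg1, or a scrambled hairpin (scr). Plcg1 encodes phospholipase C gamma 1, which cleaves a membrane lipid downstream of growth factor receptors. The lines were taken at 1, 6, 12 and 22 h with a single array for each line and time, so the 12 arrays make 4 a line and 3 a time. What the hours count from, and whether a line is 1 clone or a pool, is not stated in the labels. A standard deviation over the 4 arrays of a line therefore includes its change with time, and p-values measure the spread between these arrays only.

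Entry into mitosis is driven by CDK1 bound to cyclins, which CDC25 phosphatases activate and the kinases PLK1 and Aurora A reinforce. The checkpoint then holds sister chromatids together until kinetochores are attached. Afterwards CDC20 directs the anaphase-promoting complex to securin and the cyclins, and separase opens cohesin. Most of these genes are transcribed late in the cycle, when complexes built on MuvB act with B-MYB and FOXM1, and the same promoters are held silent in resting cells by the DREAM form of MuvB. In the marrow and fetal liver, erythroid progenitors divide several times while they mature.

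All values are deposited log2 signals made with RMA, a method that sets the arrays to nearly the same distribution. Array medians lay between 1.84 and 1.92. Titles of the arrays hold either of 2 dates, of unstated meaning, which were treated as 2 array runs. The 4 sh14 arrays belonged to run 1 and the 4 scr arrays to run 2. The sh133 line was split, with its 6 and 12 h arrays in run 1 and its 1 and 22 h arrays in run 2. The targeted gene Plcg1 averaged 4.15 ± 0.20 in sh14 and 4.41 ± 0.08 in sh133, against 4.53 ± 0.19 in scr (SD, n = 4 each), and neither sh14 minus scr (-0.36, limma adjusted p = 0.456) nor sh133 minus scr (-0.11, adjusted p = 0.767) passed the threshold. Of 12 erythroid markers 10 had a probe set, and 9 of these were above every array's median on all arrays, while 0 of 3 lymphoid and 0 of 4 fibroblast markers were. The summed log2 signal of 7 mast cell and basophil markers was 18.97 to 23.44 in sh14, 13.11 to 18.27 in sh133 and 14.07 to 19.31 in scr, with Mcpt8 and Mcpt4 below the array medians throughout. Of 6 megakaryocyte markers 4 were above every array's median on all arrays. Their summed log2 signal was 19.2 to 22.9 in sh14 and 18.08 to 22.05 in sh133, against 15.98 to 17.6 in scr, with no overlap. Taken singly, Pf4 alone lay above scr in both hairpin lines (4.91 to 5.55 in sh14, 5.08 to 7.64 in sh133, 3.74 to 4.49 in scr). Itga2b was 7.26 to 7.71 in sh14, but its 6.00 to 6.19 in sh133 lay within scr (5.27 to 6.26). Gp9, Gp1bb, Ppbp and Vwf overlapped scr in both hairpin lines. Of 6 macrophage and neutrophil markers 2 were above every array's median, and their summed log2 signal was 8.4 to 9.99 in sh14, 8.75 to 9.39 in sh133 and 8.71 to 9.25 in scr. The difference between the 3′ and 5′ actin control probe sets was 0.51 to 0.58 in sh14, 0.34 to 0.53 in sh133 and 0.55 to 0.63 in scr. The part of these differences in the results below was not tested.

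The mitotic genes were lower in sh14 than in sh133, and higher at 22 h than at 1 h. In sh14 minus sh133, 19 of 53 were called lower (7.11% of all tested genes were) and 0 higher, and the median difference was -0.41 log2. At 22 h minus 1 h, 18 of 53 were called higher (8.74% of all tested genes were) and 0 lower, with a median of 0.32. Against scr, 1 gene was called lower in sh14, where 1.56% of all tested genes were, and 0 were called in sh133, where 4.91% of all were called in either direction. The median of the genes was lowest at 12 h and highest at 6 h in sh14, and lowest at 1 h and highest at 22 h in both sh133 and scr. No gene passed the test of a difference in slope. In bulk RNA, fewer cells in mitosis and less RNA per cell cannot be told apart.

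Promoter sequences are shown for the 3 genes called at 6 h and for the 5 called genes with the largest differences between the hairpin lines, because the short motifs that late cell cycle complexes are known to bind can be read in them. The sequences are RefSeq's, build GRCm38.p6, from 250 bases before to 50 bases after the gene's start, 5′ to 3′ on the gene's strand. Capitals mark TTTGAA (the cell cycle genes homology region, CHR), its variant TTCGAA, and CCAAT, each on either strand, so that TTCAAA and ATTGG are the same motifs read from the other side.
Plk1, chr7:122159185-122159484, plus strand: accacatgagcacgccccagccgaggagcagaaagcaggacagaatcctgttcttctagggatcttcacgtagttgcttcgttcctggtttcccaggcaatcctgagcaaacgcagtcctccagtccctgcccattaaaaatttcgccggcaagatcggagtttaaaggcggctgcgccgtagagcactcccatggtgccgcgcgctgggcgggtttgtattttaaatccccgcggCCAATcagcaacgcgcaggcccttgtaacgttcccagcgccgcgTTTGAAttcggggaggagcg
Aurka, chr2:172370521-172370820, minus strand: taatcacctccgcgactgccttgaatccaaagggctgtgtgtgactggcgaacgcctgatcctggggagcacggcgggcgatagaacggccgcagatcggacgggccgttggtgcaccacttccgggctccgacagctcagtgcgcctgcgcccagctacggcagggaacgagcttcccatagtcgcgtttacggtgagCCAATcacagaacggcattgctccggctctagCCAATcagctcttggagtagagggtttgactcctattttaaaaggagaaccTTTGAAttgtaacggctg
Cdc25b, chr2:131186698-131186997, plus strand: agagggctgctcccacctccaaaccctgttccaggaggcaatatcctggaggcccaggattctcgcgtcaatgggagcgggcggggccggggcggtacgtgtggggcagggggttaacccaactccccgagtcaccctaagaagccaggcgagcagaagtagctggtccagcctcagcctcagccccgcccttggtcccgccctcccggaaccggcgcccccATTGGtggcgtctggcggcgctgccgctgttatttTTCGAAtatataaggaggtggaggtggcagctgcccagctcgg
Kif2c, chr4:117178723-117179022, minus strand: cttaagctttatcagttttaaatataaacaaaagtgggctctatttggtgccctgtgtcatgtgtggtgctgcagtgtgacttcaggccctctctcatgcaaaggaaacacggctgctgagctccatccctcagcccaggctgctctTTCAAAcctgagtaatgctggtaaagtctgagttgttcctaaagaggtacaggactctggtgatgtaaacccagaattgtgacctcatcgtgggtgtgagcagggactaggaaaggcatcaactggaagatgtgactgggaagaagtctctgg
Ndc80, chr17:71526808-71527107, minus strand: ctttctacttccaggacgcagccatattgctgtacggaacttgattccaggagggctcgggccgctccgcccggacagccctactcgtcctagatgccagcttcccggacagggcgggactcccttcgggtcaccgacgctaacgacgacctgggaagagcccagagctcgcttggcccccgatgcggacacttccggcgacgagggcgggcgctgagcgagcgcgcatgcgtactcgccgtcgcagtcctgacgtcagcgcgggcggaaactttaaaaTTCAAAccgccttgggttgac
Hmmr, chr11:40733388-40733687, minus strand: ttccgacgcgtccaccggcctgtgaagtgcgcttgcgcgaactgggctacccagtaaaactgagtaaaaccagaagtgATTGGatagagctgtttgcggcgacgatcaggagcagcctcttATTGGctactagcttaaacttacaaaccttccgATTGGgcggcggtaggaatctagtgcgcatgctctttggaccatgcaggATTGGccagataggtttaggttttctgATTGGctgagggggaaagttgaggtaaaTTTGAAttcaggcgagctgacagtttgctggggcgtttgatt
Prc1, chr7:80294201-80294500, plus strand: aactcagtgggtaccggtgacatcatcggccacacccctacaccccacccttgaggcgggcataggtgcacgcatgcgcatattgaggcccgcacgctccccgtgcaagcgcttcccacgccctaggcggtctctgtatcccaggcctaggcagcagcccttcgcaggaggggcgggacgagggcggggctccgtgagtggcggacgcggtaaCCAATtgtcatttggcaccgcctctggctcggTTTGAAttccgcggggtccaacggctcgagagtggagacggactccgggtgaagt
Kif20b, chr19:34922108-34922407, plus strand: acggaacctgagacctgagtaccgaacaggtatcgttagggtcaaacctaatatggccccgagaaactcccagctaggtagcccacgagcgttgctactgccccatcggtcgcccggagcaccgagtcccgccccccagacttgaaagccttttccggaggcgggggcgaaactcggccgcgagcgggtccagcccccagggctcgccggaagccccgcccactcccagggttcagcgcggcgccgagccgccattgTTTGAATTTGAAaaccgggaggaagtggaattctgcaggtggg
In Plk1 and Aurka, TTTGAA began 30 and 32 bases after the start, with CCAAT upstream of it. Kif2c held TTTGAA on the opposite strand upstream of the start, Ndc80 held it on the opposite strand 29 bases after the start, and neither held CCAAT. Hmmr held 5 copies of CCAAT on the opposite strand and TTTGAA 8 bases after the start. Kif20b held 2 adjoining copies of TTTGAA and no CCAAT, and Cdc25b held the variant TTCGAA in place of TTTGAA. Prc1 had a second promoter entry that held the same motifs, which is not printed.

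Over both strands of this window, TTTGAA was present in 33 of the 45 mitotic genes that had a promoter entry (73.3%), against 20.2% of 27025 genes. CCAAT was present in 34 (75.6%), against 41.1% of all genes. Both motifs occurred together in 29 (64.4%), against 8.97%, and TTCGAA occurred in 4 (8.89%), against 1.8%. A CCAAT can share its last base with TTTGAA, and each motif was counted wherever its letters stood. Called genes were found with and without TTTGAA. In sh14 minus sh133, 12 of the 33 measured genes with it were called, with a median of -0.43, and 6 of the 11 measured genes without it were called, with a median of -0.54. At 22 h minus 1 h, 13 of 33 with it and 3 of 11 without it were called. A match of these letters is a description and not a binding site. No entry was found for Ccna2, Cdc25c, Kif20a, Spc24, Aurkb, Incenp, Smc4, Tpx2 and Foxm1.

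The 53 genes moved together over the 12 arrays. The median correlation between 2 of them was 0.65 over 1378 pairs, of which 1274 were above 0, whereas the median over pairs of all tested genes was 0.006. These arrays share lines, times and runs, so the value is a description. Correlated with the mean of the other mitotic genes, 47 of the 53 had r above 0.5 and 28 had r above 0.8. Kif4, a chromosome-bound kinesin, was the most alike (r = 0.97), followed by Kif22 (0.96) and Espl1 (0.95). The least alike were Foxm1 (-0.12), Ncapd2 (-0.11), Cdca3 (0.13) and Nusap1 (0.33). Kif4, Ncapd2 and Cdca3 were singled out after their values were seen.

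**Figure D1:**
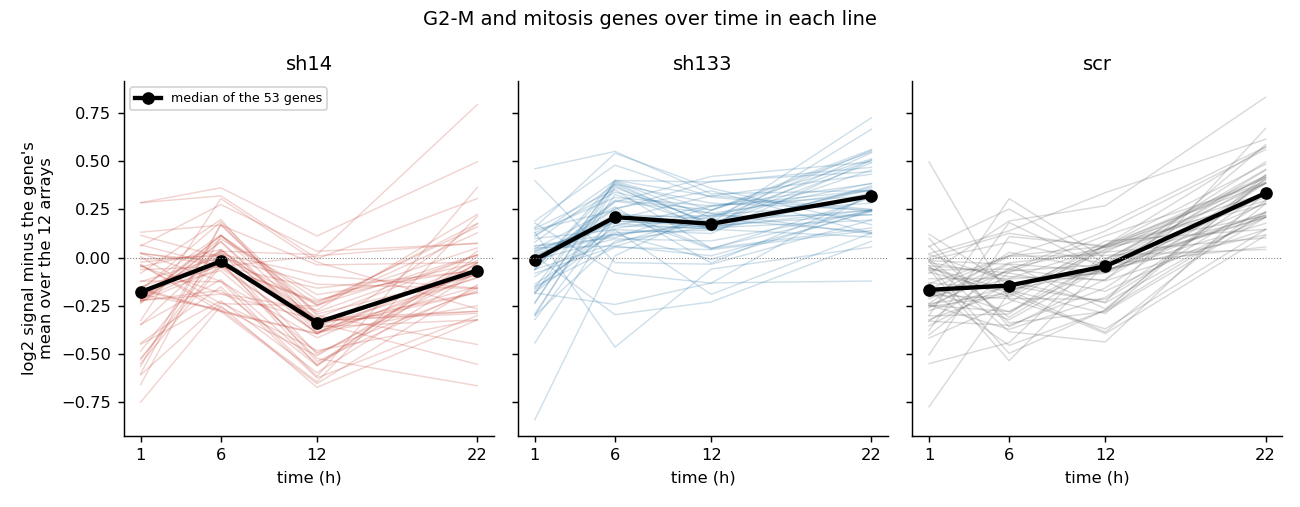
Log2 signal of each of the 53 genes minus its own mean over the 12 arrays (vertical axis) against time in hours, in sh14 (left), sh133 (middle) and scr (right). Thin lines are genes and the thick line is their median; the sh14 median is lowest at 12 h, and the scr median is highest at 22 h.

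In sh14 the mitotic genes dipped at 12 h. Going from 6 to 12 h, 52 of 53 had a lower signal at 12 h, with a median step of -0.35, where the median of all tested genes was 0.01. The 12 h array was the lowest of the 4 in 37 genes (69.8%), against 16.5% of all genes tested. The steps before and after it went up: 40 genes were higher at 6 h than at 1 h (median 0.17), and 47 were higher at 22 h than at 12 h (median 0.30). Of all tested genes, 58.3% and 45.3% were higher in these steps. Across the whole span the median at 22 h minus 1 h was 0.12, with 41 genes higher, where 51.5% of all tested genes were. Cdc25c was the exception to the dip, with a step of 0.06 from 6 to 12 h.

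In sh133 the largest median step was the first, which also passed from run 2 to run 1. Between 1 and 6 h, 48 of 53 genes were higher at 6 h (52.9% of all tested genes were), with a median step of 0.23. The 1 h array was the lowest of the 4 in 41 genes (77.4%), against 35.1% of all genes. The next step was flat (median -0.03, 18 genes higher), and 45 genes were higher at 22 h than at 12 h (median 0.12). Of all tested genes, 49.2% and 47.0% were higher. The 22 h array was the highest in 37 genes (69.8%), against 26.7% of all genes. Over the span, 50 genes were higher at 22 h than at 1 h (51.0% of all tested genes were), with a median of 0.34. The 6 and 12 h arrays of sh133 belong to run 1 and its 1 and 22 h arrays to run 2, so the first and last of these steps span the runs, and within them time and run cannot be told apart. In the fit over all lines, the estimate for run 1 minus run 2 was above 0 for 48 of the 53 genes, with a median of 0.18, and 2 had an unadjusted p under 0.05 (3.77%, against 5.48% of all tested genes).

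In scr the gain came late. The steps to 6 h and to 12 h had medians of 0.05 and 0.06, with 30 and 33 genes higher. Of all tested genes, 51.4% and 51.3% were higher. All 53 genes were then higher at 22 h than at 12 h, with a median of 0.41, whereas 47.6% of all tested genes were. The 22 h array was the highest of the 4 in 51 genes (96.2%), against 29.8% of all genes. At 22 h minus 1 h, 52 genes were higher (53.7% of all tested genes were), with a median of 0.48, and Nusap1 alone was lower (-0.35). These are single arrays, so none of the steps within a line has an error of its own. Each scr time has 1 array, and the arrays of a line that straddle both runs are those of sh133.

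The difference in slope between lines was tested with a term for each hairpin's slope on log2 hours relative to scr, a model with 3 residual degrees of freedom. limma called 0 of 53 for the slope of sh14 minus that of scr, where 2.79% of all tested genes were called, 0 for sh133 minus scr (0.0237%) and 0 for sh14 minus sh133 (0.0158%). At an unadjusted p under 0.05 these counts were 10 (18.9%, against 21.9% of all tested genes), 2 (3.77%, against 12.4%) and 3 (5.66%, against 12.4%). In sh14 minus scr, 47 of the 53 slope differences were below 0, with a median of -0.09 log2 per doubling of hours. Ect2, an exchange factor that activates RhoA at the cleavage furrow, had the smallest p among the genes here (-0.19 ± 0.04 SE, adjusted p = 0.063), and is named after its value was seen. Other settings called 1 or 2 of the genes lower for this slope, as given in the closing section.

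Over all lines, 18 of the 53 genes were called higher at 22 h than at 1 h (34.0%), where 8.74% of all tested genes were, and 0 were called lower, against 9.34%. The 22 h array was above the 1 h array in all 3 lines for 39 genes (73.6%), against 24.3% of all genes, and the 6 h array was above it in all 3 lines for 24 genes (45.3%), against 24.0%. Called genes lay in the cyclin, CDK1 and CDC25 group, which includes Cdca3 (2 of 6), and in the kinases (2 of 3). The group of anaphase-promoting complex activity and separase had 1 of 4. Others lay in the kinesins (3 of 8), the kinetochore (4 of 7), condensin and chromosome structure (3 of 7) and the spindle and cytokinesis group (3 of 8). No gene of the spindle checkpoint (0 of 5) or of the passenger complex (0 of 4) passed, nor did Foxm1. At an unadjusted p under 0.05 these had 2, 2 and 0, where 31 of the 53 genes (58.5%) and 31.8% of all tested genes did. Leaving out 1 array at a time gave 3 to 23 calls. There were 23 without sh14 at 22 h, where 7.73% of all tested genes were called higher. There were 3 without sh133 at 1 h or at 22 h, where the remaining sh133 array of run 2 is absorbed by the run term and 4.5% of all genes were called higher in each fit. There were 7 without scr at 22 h (7.46% of all genes), and 10 without scr at 1 h (7.62%) or sh133 at 6 h or 12 h (6.87% each). Erythroid markers moved over the same interval: 8 of 9 tested were called higher at 22 h, with a median of 0.80, and the part of that shift in the mitotic genes was not tested.

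**Figure D2:**
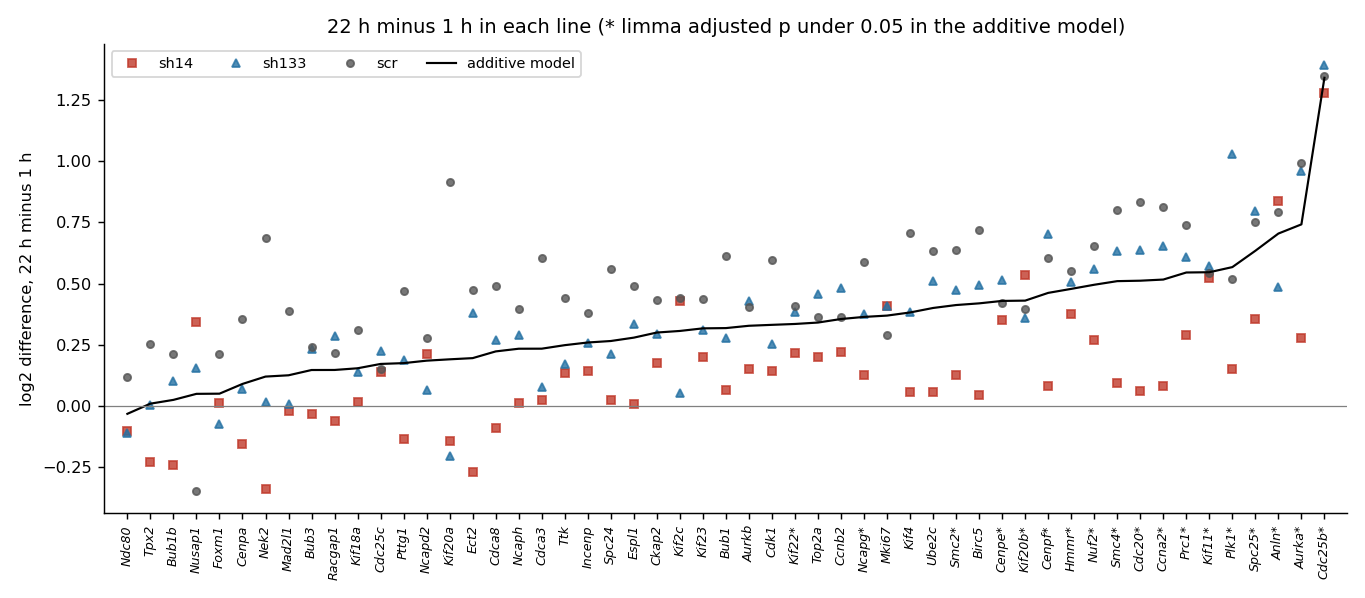
Log2 difference of 22 h minus 1 h (vertical axis) for each of the 53 genes, ordered by the estimate over all lines (black line), with the difference within sh14 (squares), sh133 (triangles) and scr (circles). Asterisks mark the 18 genes called by limma; Cdc25b stands highest at 1.34, and the sh14 points lie mostly below those of sh133 and scr.

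Cdc25b, a phosphatase that activates CDK1 at mitotic entry, had the largest change with time. Its signals at 1, 6, 12 and 22 h were 4.73, 5.25, 5.23 and 6.01 in sh14, 4.37, 5.22, 5.46 and 5.77 in sh133, and 4.44, 5.03, 5.28 and 5.79 in scr. In each line 22 h was the highest array and 1 h the lowest, and the 22 h arrays do not overlap the 1 h arrays. The change was 1.34 ± 0.10 log2 (SE; 2.54 times the 1 h signal), with a limma adjusted p of 2.078e-05. Cdc25b was also called at 6 h minus 1 h (0.55, adjusted p = 0.020) and at 22 h minus 12 h (0.64, adjusted p = 0.030). It did not differ past the threshold between sh14 and sh133 (-0.06, 95% interval -0.30 to 0.18), and its sign there turns under 4 alternatives.

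Plk1, the polo-like kinase that drives centrosome maturation and mitotic entry, was 5.48, 6.26, 5.79 and 5.64 in sh14, 5.78, 6.45, 6.27 and 6.82 in sh133, and 5.79, 6.39, 6.08 and 6.31 in scr. Its 6 h array was above the 1 h array in every line, while at 22 h sh14 stood well below the other two lines. Plk1 rose at 6 h minus 1 h by 0.77 ± 0.17 (adjusted p = 0.033) and at 22 h minus 1 h by 0.57 ± 0.15 (adjusted p = 0.027). Aurka, Aurora kinase A of the spindle poles, was 6.61, 7.35, 6.85 and 6.89 in sh14, 6.88, 7.50, 7.33 and 7.84 in sh133, and 6.67, 7.29, 7.24 and 7.66 in scr. It was likewise lowest at 1 h in every line, and highest at 6 h in sh14 but at 22 h in sh133 and scr. Aurka rose by 0.72 ± 0.17 at 6 h minus 1 h (adjusted p = 0.042) and by 0.74 ± 0.15 at 22 h minus 1 h (adjusted p = 0.0077). The third kinase, Nek2, which splits the centrosomes, changed by 0.12 at 22 h minus 1 h and did not pass.

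At 6 h minus 1 h, Plk1, Aurka and Cdc25b were the only genes called among the 53 (5.66%, against 2.93% of all tested genes called higher). That count fell to 0 without sh14 at 6 h, sh133 at 6 h or 12 h, or scr at 1 h or 6 h, and to 1 without sh14 or scr at 12 h. Calls fell over all tested genes too, from 4.86% in either direction with all arrays. The shares were 1.48% without sh14 at 6 h and 1.86% without sh133 at 6 h or at 12 h. Without scr at 1 h and 6 h they were 2.45% and 0.765%. Without sh14 and scr at 12 h they were 3.09% and 2.97%. Cdc20, the activator of the anaphase-promoting complex, had a step of similar size that did not pass (0.59 ± 0.17, adjusted p = 0.089). At 12 h minus 6 h, limma called 0 of 53, where 0.00789% of all genes were called, and 4 had an unadjusted p under 0.05 (7.55%, against 5.29% of all genes). At 22 h minus 12 h all 53 estimates were above 0, with a median of 0.33, and 3 were called higher (5.66%, against 0.426%): Hmmr (0.69 ± 0.14), Mki67 (0.69 ± 0.13) and Cdc25b. Nusap1, a spindle microtubule protein, had the largest estimate of that step (0.73 ± 0.15) and missed the threshold (adjusted p = 0.052). The 3 calls went to 0 without sh14 at 12 h, any of the sh133 arrays, or scr at 6 h or 12 h. Calls over all tested genes fell as well in those fits, to between 0.00789% and 0.221% in either direction, against 1.25% with all arrays.

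Cdc20 was 8.95, 9.59, 9.26 and 9.01 in sh14, 8.84, 9.49, 9.44 and 9.48 in sh133, and 8.90, 9.46, 9.22 and 9.74 in scr. All 3 lines were lowest at 1 h, and sh14 alone was back near its 1 h signal at 22 h. It rose by 0.51 ± 0.15 at 22 h minus 1 h (adjusted p = 0.045). In the same group, Pttg1 (securin, the inhibitor of separase) and Espl1 (separase) were not called, at 0.17 and 0.28. Anln, the actin-binding anillin of the cleavage furrow, rose by 0.70 ± 0.12 (adjusted p = 0.0036), and Spc25, a subunit of the NDC80 complex that holds microtubules at the kinetochore, rose by 0.63 ± 0.13 (adjusted p = 0.0067). Anln averaged 6.23 ± 0.39 in sh14, 6.53 ± 0.22 in sh133 and 6.39 ± 0.33 in scr (SD, n = 4 each). Spc25 averaged 6.33 ± 0.25 in sh14, 6.81 ± 0.34 in sh133 and 6.60 ± 0.31 in scr. Kif11, the bipolar kinesin that pushes spindle poles apart, rose by 0.55 ± 0.10 (adjusted p = 0.0034) and is named after its value was seen.

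Between the hairpin lines, 19 of 53 genes were called lower in sh14 than in sh133 (35.8%), where 7.11% of all tested genes were called lower, and 0 were called higher, against 7.54%. The estimate was below 0 for 50 of the 53. All 4 sh14 arrays lay below all 4 sh133 arrays in 19 genes (35.8%), against 10.7% of all tested genes, and sh14 was below sh133 at all 4 times in 35 genes (66.0%), against 21.7%. At matched times sh14 was below sh133 in 39 genes at 1 h (median difference -0.13), 47 at 6 h (-0.23), 49 at 12 h (-0.52) and 48 at 22 h (-0.42). Of all tested genes, 51.3%, 48.6%, 48.7% and 51.7% were below at these times. The 6 and 12 h pairs each shared a run. With the run term, the sh133 level in sh14 minus sh133 rests on its 2 arrays of run 1, at 6 and 12 h. A fit of run 1 alone reuses these arrays and is not a separate check. In the 4 arrays of both hairpin lines at 6 and 12 h, all of run 1, where no run term is needed and 1 residual degree of freedom remains, 21 genes were called lower, where 9.07% of all genes were, and 0 higher. The count fell to 1 without sh133 at 6 h or at 12 h, where 1.45% and 1.79% of all genes were called lower. In those fits the remaining sh133 array of run 1 is absorbed by the run term. It fell to 5 without sh14 at 12 h, where 3.57% of all genes were called lower.

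**Figure D3:**
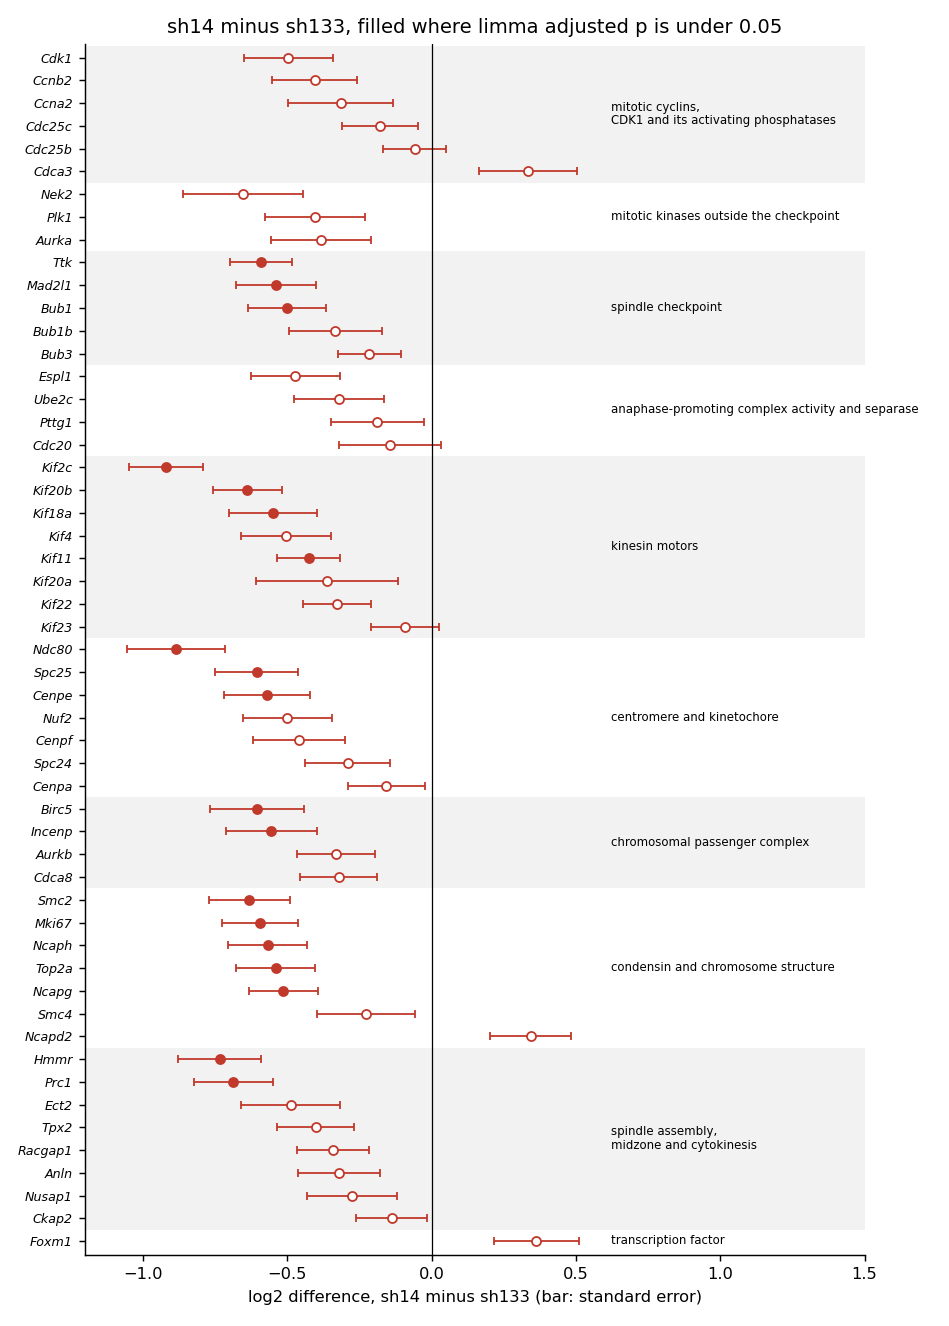
Log2 difference of sh14 minus sh133 with its standard error (horizontal axis) for the 53 genes, grouped by role. Filled points have a limma adjusted p under 0.05; all 19 lie left of 0, and 3 open points, Cdca3, Ncapd2 and Foxm1, lie right of it.

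Kif2c, a kinesin that depolymerises microtubules at centromeres to correct wrong attachments, had the largest difference. Its signals at 1, 6, 12 and 22 h were 5.66, 6.16, 5.74 and 6.09 in sh14, 6.61, 6.90, 6.73 and 6.66 in sh133, and 6.47, 6.67, 6.38 and 6.91 in scr. Every sh14 array was below every array of the other 2 lines, and sh133 and scr overlapped. sh14 minus sh133 was -0.92 ± 0.13 (SE), so that sh14 had 52.8% of the sh133 signal, with an adjusted p of 0.0015, and the call held under all 20 alternatives. Kif2c has 4 probe sets above the filter, with differences of -0.92, -0.75, -0.17 and 0.08 from the brightest to the dimmest, so the size depends on the probe set. Its 20 nearest tested genes in map order on chromosome 4 had a median of 0.34, with 19 above 0, the opposite direction.

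Ndc80, the subunit that names the kinetochore's microtubule coupler, was 5.55, 5.30, 4.93 and 5.44 in sh14, 6.05, 6.14, 5.92 and 5.93 in sh133, and 5.52, 5.05, 5.55 and 5.64 in scr. The sh133 arrays stood above all others, while sh14 and scr overlapped. The difference sh14 minus sh133 was -0.89 ± 0.17 (adjusted p = 0.0074). With Spc25 (-0.61) and Cenpe, a kinesin of the outer kinetochore (-0.57), 3 of 7 kinetochore genes were called lower. Cenpa, the histone variant that marks the centromere and the brightest probe set of that group, did not pass (-0.16, 95% interval -0.45 to 0.14).

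Hmmr, a microtubule-binding protein of the spindle poles, was 6.49, 6.72, 6.34 and 6.87 in sh14, 6.94, 7.17, 7.15 and 7.45 in sh133, and 7.06, 6.80, 6.71 and 7.61 in scr. The sh14 and sh133 arrays did not overlap, and scr overlapped both. The difference was -0.74 ± 0.14 (adjusted p = 0.0076), and all 5 Hmmr probe sets were lower in sh14, by -0.35 to -1.01. Prc1, which bundles the microtubules of the spindle midzone, was 6.02, 6.39, 6.14 and 6.30 in sh14, 6.58, 6.93, 6.88 and 7.19 in sh133, and 6.46, 6.64, 6.80 and 7.20 in scr. All 4 sh14 arrays lay below all arrays of sh133 and scr. Prc1 differed by -0.69 ± 0.14 (adjusted p = 0.0087). The other 6 genes of the spindle and cytokinesis group were below 0 and did not pass, among them Nusap1 (-0.28) and Anln (-0.32).

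Kif20b, a kinesin needed to complete cytokinesis, was 5.99, 6.49, 6.14 and 6.52 in sh14, 6.64, 6.94, 6.93 and 7.00 in sh133, and 6.26, 6.39, 6.47 and 6.65 in scr. Here scr lay between the hairpin lines, overlapping sh14 and the lowest sh133 array. The difference was -0.64 ± 0.12 (adjusted p = 0.0061). Kif11 (-0.43) and Kif18a (-0.55) brought the called kinesins to 4 of 8. Kif22, the brightest kinesin probe set, had -0.33 and did not pass (adjusted p = 0.097).

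Among condensin and chromosome genes 5 of 7 were called lower: Smc2 (-0.63), Mki67 (-0.60), Ncaph (-0.57), Top2a (-0.54) and Ncapg (-0.51). Top2a, the topoisomerase that untangles sister chromatids, was 8.81, 8.87, 8.48 and 9.01 in sh14, 9.07, 9.23, 9.21 and 9.53 in sh133, and 8.99, 8.83, 9.08 and 9.35 in scr. The hairpin lines did not overlap, and scr overlapped both. Mki67, the Ki-67 protein that coats mitotic chromosomes, was 9.52, 9.44, 9.07 and 9.93 in sh14, 9.81, 9.86, 9.84 and 10.22 in sh133, and 9.82, 9.35, 9.60 and 10.11 in scr. Its 22 h array was highest in each line, and sh14 at 22 h exceeded 3 of the sh133 arrays. Smc2, a core condensin subunit, averaged 7.99 ± 0.15 in sh14, 8.47 ± 0.21 in sh133 and 8.16 ± 0.31 in scr (SD, n = 4 each).

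In the chromosomal passenger complex, which corrects attachments and guides cytokinesis, 2 of 4 were called lower, Birc5 (survivin, -0.61 ± 0.16) and Incenp (-0.56 ± 0.16). Birc5 was 8.18, 8.30, 7.97 and 8.22 in sh14, 8.27, 8.73, 8.65 and 8.76 in sh133, and 8.00, 7.98, 8.17 and 8.72 in scr. The sh14 arrays overlapped sh133 only at its 1 h array. Cdca8 (borealin), the brightest of the group, had -0.32 and did not pass (adjusted p = 0.143). In the spindle checkpoint 3 of 5 were called lower, Ttk (-0.59 ± 0.11), Mad2l1 (-0.54 ± 0.14) and Bub1 (-0.50 ± 0.13). Ttk, the kinase that starts the checkpoint signal, averaged 5.74 ± 0.10 in sh14, 6.20 ± 0.13 in sh133 and 5.91 ± 0.19 in scr. Bub3, the brightest of them, had -0.22 and did not pass.

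No gene was called in sh14 minus sh133 among the cyclins, CDK1, CDC25 phosphatases and Cdca3 (0 of 6) or the kinases (0 of 3). The group of anaphase-promoting complex activity and separase (0 of 4, Cdc20, Ube2c, Pttg1 and Espl1) held none either. Subunits of the complex are in a separate list below. At an unadjusted p under 0.05 these groups had 2, 2 and 1, where 36 of the 53 genes (67.9%) and 27.8% of all tested genes did. The counts rest on the brightest probe set of each gene. A second Ccna2 set, of mean 7.53 against 7.70, had -0.69 ± 0.16 (SE), against -0.315 for the brightest. Cdk1, the kinase at the centre of mitotic entry, was 7.35, 7.64, 7.17 and 7.49 in sh14, 7.78, 7.89, 7.88 and 8.04 in sh133, and 7.81, 7.93, 8.13 and 8.41 in scr. The sh14 arrays lay below all arrays of both other lines, and sh133 was below scr at every time. Cdk1 differed by -0.50 ± 0.15 and missed the threshold (adjusted p = 0.057). Its 20 neighbours on chromosome 10 had a median of 0.03 in sh14 minus sh133, with 12 above 0. Their medians were -0.16 in sh14 minus scr and -0.15 in sh133 minus scr. Ccnb2, the brightest cyclin probe set, had -0.41 (adjusted p = 0.099), Nek2 -0.65 (adjusted p = 0.062), Plk1 -0.41 (adjusted p = 0.159), Aurka -0.38 (adjusted p = 0.183), Espl1 -0.47 (adjusted p = 0.068) and Pttg1 -0.19. Cdc20 had -0.15, with a 95% interval of -0.54 to 0.25.

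By the brightest probe sets, Foxm1, the transcription factor that drives many of these genes, stood apart with Cdca3 and Ncapd2, the only genes above 0. Foxm1 was 3.59, 3.81, 3.56 and 3.60 in sh14, 3.66, 3.06, 3.47 and 3.59 in sh133, and 3.47, 3.47, 3.41 and 3.68 in scr. The lines overlapped, and the largest matched difference (0.74) was at 6 h, between the highest sh14 and the lowest sh133 array. The estimates were 0.36 for Foxm1 (adjusted p = 0.142), 0.33 for Cdca3 (adjusted p = 0.243) and 0.34 for Ncapd2 (adjusted p = 0.139). Other probe sets above the filter had 0.04 and 0.09 for Foxm1, -0.04 for Cdca3 and -0.11 for Ncapd2. In the RefSeq order of genes, build GRCm38.p6, all 3 lie on chromosome 6. Their nearest 20 tested genes each give 53 distinct neighbours, of which 40 were above 0 in sh14 minus sh133, with a median of 0.39, while the median of the 628 tested genes on the chromosome was 0.08. Mad2l1, the fourth gene of this set on chromosome 6, had neighbours with a median of -0.08. The part of neighbouring genes in these values was not tested, and the neighbours were examined after the values were seen.

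**Figure D4:**
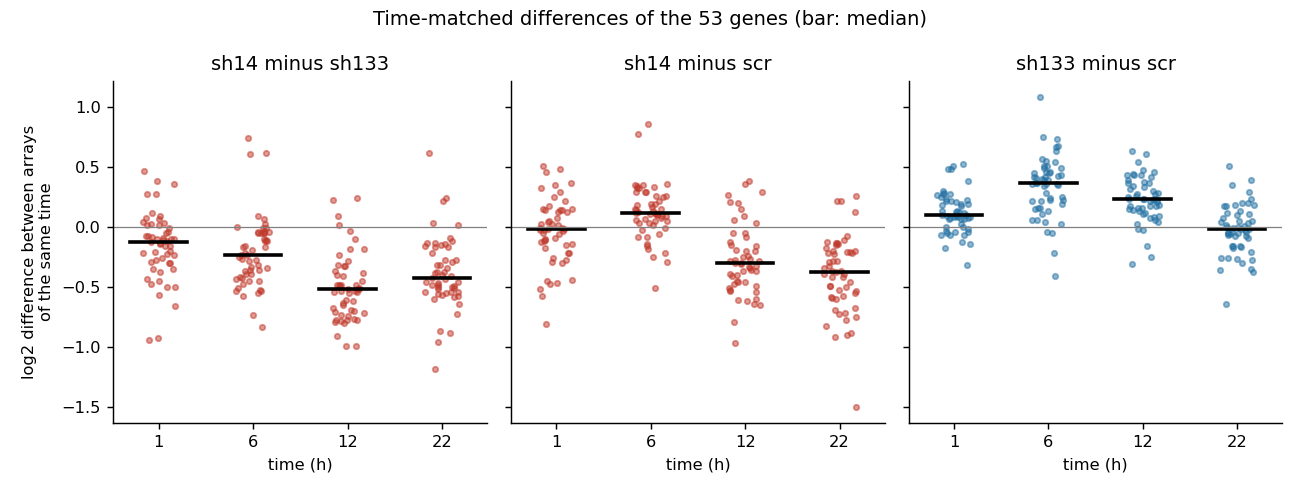
Log2 differences between arrays of the same time (vertical axis) at 1, 6, 12 and 22 h, for sh14 minus sh133 (left), sh14 minus scr (middle) and sh133 minus scr (right). Each point is 1 of the 53 genes and the bar is their median; sh14 minus sh133 has medians of -0.13, -0.23, -0.52 and -0.42.

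Set against the scrambled line, 1 mitotic gene passed the test in sh14 and 0 passed in sh133. The comparisons of sh14 and of sh133 share the scr arrays. In sh14 minus scr, 1 of 53 genes was called lower (1.89%), where 1.56% of all tested genes were, and 0 were called higher, against 1.5%. That gene was Kif2c (-0.92 ± 0.19, adjusted p = 0.033). The median of the 53 was -0.32, with 49 below 0. At an unadjusted p under 0.05 there were 12 (22.6%, against 17.1% of all tested genes). Next to Kif2c stood Hmmr (-0.77, adjusted p = 0.091) and Cdk1 (-0.68, adjusted p = 0.159). No scr array shared a run with sh14, so this estimate corrects for the run with a term that rests on sh133 alone. Without the run term 7 genes were called lower and 1 higher, where 11.9% and 11.8% of all genes were, and the median was -0.13. All 4 sh14 arrays lay below all 4 scr arrays in 4 genes (7.55%), against 8.42% of all genes: Cdk1, Kif2c, Prc1 and Racgap1. The Kif2c call was lost when a gene's probe sets were averaged, and in 9 of the 12 fits that left out 1 array, namely all 4 scr arrays, sh14 at 6 h and 12 h, and sh133 at 6, 12 and 22 h. At matched times, the median of sh14 minus scr was -0.02 at 1 h, 0.12 at 6 h, -0.30 at 12 h and -0.37 at 22 h. All 4 of these pairs span the runs.

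In sh133 minus scr, limma called 0 of 53, where 4.91% of all tested genes were called in either direction, and 3 genes had an unadjusted p under 0.05 (5.66%, against 17.6% of all genes). The median was 0.09, with 37 above 0. Kif20b came nearest (0.39 ± 0.12, adjusted p = 0.099). Matched medians were 0.10 at 1 h and -0.01 at 22 h, where the arrays shared a run, and 0.37 at 6 h and 0.23 at 12 h, where they did not. In the 4 arrays of both lines at 1 and 22 h, all of run 2, 0 of 53 were called, where 1.02% of all genes were called higher and 0.986% lower. With the run term, the sh133 level in sh133 minus scr rests on the same 2 sh133 arrays, so this is not a separate check. For both hairpins minus scr, 0 of 53 were called, where 2.18% of all genes were, with a median of -0.14. At an unadjusted p under 0.05 there were 3 (5.66%, against 14.7% of all genes).

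Most second probe sets gave the same direction. Another probe set above the filter existed for 35 of the 53 genes, 58 sets in all. In sh14 minus sh133, 49 of the 58 had the sign of the brightest set, and at 22 h minus 1 h, 54 did. The exceptions in sh14 minus sh133 belonged to Cdc20, Cdca3, Incenp, Kif23, Kif2c, Ncapd2, Ncapg, Spc25 and Tpx2. Incenp, Kif2c, Ncapg and Spc25 are among the genes called lower. The second Ncapg set, of mean 5.42 against 6.13, had 0.07, against -0.51 for the brightest. Sizes varied both ways. A second set gave a larger difference for Kif22 (-0.51, against -0.33) and Nusap1 (-0.88, against -0.28), and a smaller one for Ttk (-0.16, against -0.59) and Kif20b (-0.11, against -0.64).

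Genes next to these in the pathway were counted in lists that hold none of the 53, beside 7.11% of all tested genes called lower in sh14 than in sh133. Of 29 further kinetochore proteins 10 were called lower in sh14 than in sh133, and of 27 condensin II and spindle proteins 9 were, with medians of -0.39 and -0.34. Cenpk of the inner kinetochore had -1.18 ± 0.16, Nsl1 of the MIS12 complex -0.90 ± 0.17, and Cep55, the midbody protein of abscission, -1.52 ± 0.19. The cohesin and shugoshin list had 4 of 15 called lower, with Sgo1, the protector of centromeric cohesin, at -0.67. The list of anaphase-promoting complex subunits and regulators had 2 of 17, Cdc27 at -0.71 and Anapc1 at -0.39. The DREAM and MYB-MuvB list had 2 of 13, Lin9 at -0.77 and Mybl1 at -0.50. Among entry kinases and phosphatases 3 of 17 were called lower and 1 higher, Vrk1 at 0.60. For comparison, 9 of 53 tested S phase genes were called lower (17.0%), with a median of -0.38. Geminin (Gmnn), the inhibitor of replication licensing, had -1.003 ± 0.16.

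**Figure D5:**
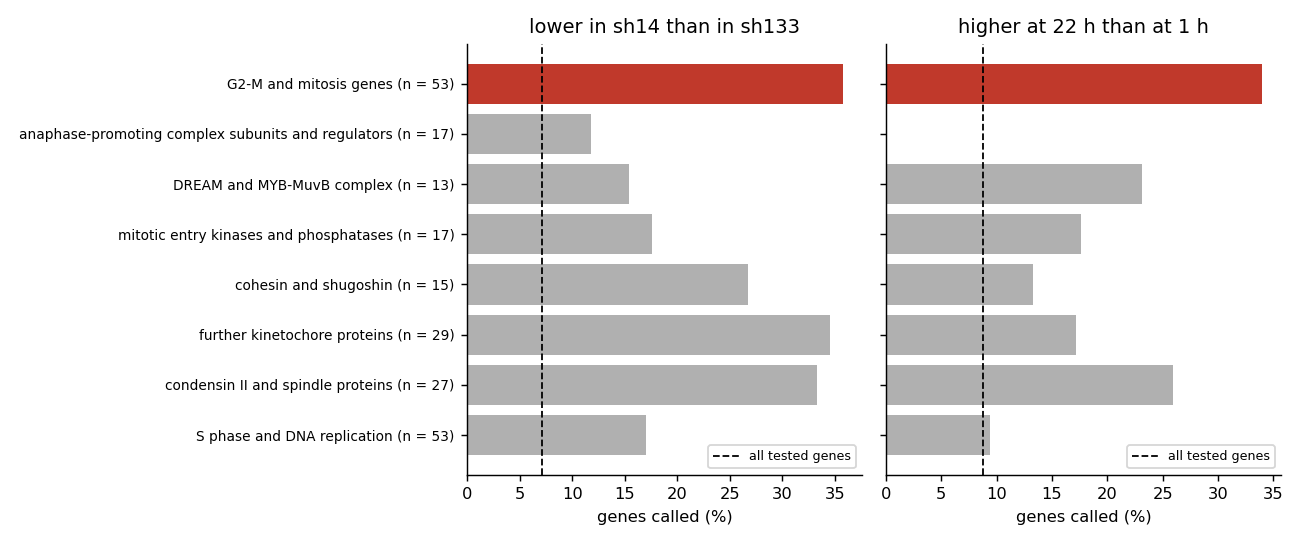
Percentage of tested genes called by limma (horizontal axis) as lower in sh14 than in sh133 (left) and as higher at 22 h than at 1 h (right), for the 53 genes (red) and 7 related lists (grey). The dashed line is the percentage among all 12673 tested genes, 7.11% on the left and 8.74% on the right; the anaphase-promoting complex list had 0 genes on the right.

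At 22 h minus 1 h, where 8.74% of all tested genes were called higher and 9.34% lower, some related lists held calls in both directions. The condensin II and spindle list had 7 of 27 called higher and 2 lower, and Cep55 fell by 2.13 (adjusted p = 4.01e-05). The further kinetochore list had 5 of 29 called higher and 0 lower, with Cenpl at 0.82. The entry kinases and phosphatases had 3 higher and 2 lower of 17, with Pbk at 0.68 and Nek6 at -1.64. The cohesin list had 2 higher and 1 lower of 15, and the DREAM list 3 higher of 13 with Rbl1 (p107) at 0.58. The anaphase-promoting complex list had 0 of 17, with 2 at an unadjusted p under 0.05, where 31.8% of all tested genes were. S phase genes had 5 of 53 called higher (9.43%), with a median of 0.22, led by the licensing factor Cdc6 at 1.19.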

How the data were processed

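Per the labels' protocols, amplified and biotin-labelled material from total RNA was measured on Affymetrix mouse genome arrays. The deposited values are log2 signals. The submitters' processing notes name RMA, whose version is not given in the sources used here. Values ran from 0.0358 to 13.1 over 45101 probe sets, and no column of values was left unused.

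In the platform annotation 34958 probe sets had 1 gene, 932 had several and 9211 had none. Of those with 1 gene, 34754 matched RefSeq (GRCm38.p6) by Entrez identifier. The brightest probe set represented a gene, and a filter at the 40th percentile of mean signal (log2 1.45) kept 12673 genes.

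limma 3.58.1 in R 4.3.3 fitted the shRNA, the array run and the time as a factor (5 residual degrees of freedom), with Benjamini-Hochberg adjustment over the 12673 genes and a threshold of 0.05. "Called" means past that threshold. Errors of differences are standard errors, and the fit was tested on simulated data. Alternatives changed the run term, filter, probe set rule, normalisation, variance prior and slope scale, and left out each array. Precision is limited by having 12 arrays.

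The members, lists and tests were chosen with earlier results of these data known. Genes named are 9 set members (Ccnb1, Cdk1, Plk1, Aurka, Cdc20, Top2a, Birc5, Mki67, Foxm1), the brightest and the most different in sh14 minus sh133 of each role group, and up to 5 called genes per comparison and direction with the largest change. From each related list up to 2 called genes per direction are named. Other genes given with values, beyond those that complete a role group's called genes, were chosen after their values were seen. Promoters came from RefSeq. Figures were drawn with Python 3.11.15 and matplotlib 3.10.9.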

Additional observations from a re-analysis of the deposited data

Results flagged for a closer look

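In each line the lowest and highest of its 4 arrays were compared with the rest for 27 named genes, 81 groups in all, and 5 groups had 1 array far from the other 3, where chance gives about 5% of groups. The arrays of a line differ in time, so a distant array can be a distant time.

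Cdc20 in sh133 was low at 1 h (8.84, against 9.44 to 9.49 at the other times). Mki67 in sh133 was high at 22 h (10.22, against 9.81 to 9.86). Foxm1 in sh14 was high at 6 h (3.81, against 3.56 to 3.60). Bub3 in scr was low at 1 h (9.26, against 9.46 to 9.50), and Cdca8 in scr was high at 22 h (9.07, against 8.56 to 8.58).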

How the results depend on the processing

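The counts of the 53 mitotic genes called by limma moved with the run term. With no array run term, or with the run as a random block, both hairpins minus scr called 2 and 2 in place of 0 (of all tested genes 16.2% and 16.5% were called in either direction), sh14 minus scr 8 and 8 in place of 1 (23.7% and 24.0%), sh133 minus scr 3 and 3 in place of 0 (12.6% and 12.7%), and 6 h minus 1 h 6 and 6 in place of 3 (7.46% and 7.48%). Averaging the probe sets of a gene left 0 in sh14 minus scr. A filter at the 60th percentile gave 5 at 22 h minus 12 h (2.36%). For the slope of sh14 minus that of scr, the 60th percentile filter called 1 (7.32%), averaged probe sets 2 (3.65%), a trended robust prior 2 (8.34%) and a slope on hours 1 (2.72%), in place of 0, all lower. Leaving out 1 array at a time gave 1 to 24 calls in sh14 minus sh133, 3 to 23 at 22 h minus 1 h, 0 to 3 at 22 h minus 12 h, 0 to 4 at 6 h minus 1 h and 0 to 1 in sh14 minus scr, and 0 to 0 in the other comparisons and slopes. Over all tested genes, these fits called 3.08% to 17.4% in sh14 minus sh133 and 9.04% to 17.9% at 22 h minus 1 h. They called 0.00789% to 1.67% at 22 h minus 12 h and 0.765% to 5.76% at 6 h minus 1 h. In sh14 minus scr they called 0.686% to 4.38%. Of 1175 values of single genes under alternatives, 901 kept direction and side of the threshold, 246 lost the call, 24 gained it and 4 turned sign. All 4 were Cdc25b in sh14 minus sh133, at 0.10 without the run term, 0.10 with the random block, 0.046 without sh14 at 12 h and 0.0009 without sh133 at 12 h, in a range of -0.12 to 0.046 over the fits that left out 1 array. The causes were not tested. No paired analysis was possible because replicate numbers within a line follow deposit order and pair nothing, while arrays of the same time are matched by the time term.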
